A study of Mus musculus with 2 samples.

Results

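Laminins, nidogens and perlecan are the proteins that join with type IV collagen into the basement membrane, the sheet of matrix that surrounds the brain and spinal cord and ensheathes their blood vessels. The 10 genes described here are the alpha chain genes Lama1, Lama2, Lama4 and Lama5, the beta chain genes Lamb1 and Lamb2, the gamma chain gene Lamc1, the nidogen genes Nid1 and Nid2, and the perlecan gene Hspg2. They were taken by name and matched to gene rows by gene ID without its version, and all 10 were found among 43346 gene rows, of which 21474 are annotated as protein-coding. Total RNA longer than 200 bases from the neural tube of 2 newborn pups (postnatal day 0) of the B6NCrl mouse strain was sequenced, with 10 ng entering each library and spike-in RNA added. Each library comes from the neural tube of 1 pup, and the pups are littermates from 1 litter. They form 1 group of n = 2, and the design compares no conditions. Sex was not recorded.

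A laminin molecule is a trimer of 1 alpha, 1 beta and 1 gamma chain, joined along a coiled coil and named by the numbers of its chains. With the gamma chain of Lamc1, the alpha and beta chains described here can make the trimers named laminin-111, laminin-121, laminin-211, laminin-221, laminin-411, laminin-421, laminin-511 and laminin-521. Integrins and dystroglycan on the cell surface bind the alpha chains. Laminins with full short arms polymerise into a sheet, while those with the alpha chain of Lama4, which lacks the short arm, do not polymerise by themselves. Nidogens bridge the laminin gamma chain to type IV collagen, and perlecan, a large proteoglycan with heparan sulfate side chains, binds both networks and holds growth factors. In the central nervous system these proteins form the pial basement membrane, on which radial glia anchor their endfeet, and the basement membranes of capillaries.

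Sequencing gave pup 2 a total of 40003518 expected counts over the gene rows, and pup 1 a total of 26916916. Expected counts are the authors' estimated read numbers, and TPM is their abundance per transcript length, scaled to a fixed total. Over 18105 genes the spread between the pups corresponded to a biological coefficient of variation of 0.0955. For a gene at 0 counts, counting error alone leaves room for 0.075 CPM in pup 2 and 0.111 in pup 1. All 6 of 6 neuron markers and 6 of 6 astrocyte markers reached a TPM of 1 in both pups, led by Stmn2 at 1119.86 TPM in pup 2 and 1096.3 in pup 1 and by Aldoc at 915.44 TPM in pup 2 and 944.49 in pup 1. None of 6 forebrain markers did, against 63.8% of protein-coding genes, and Otx1, Otx2 and Nkx2-1 had 0 counts in both pups. A difference between the pups sets 1 library against another and cannot be checked on replicates, so no p-values are given. In whole tissue, fewer cells of a type and less RNA per cell cannot be told apart.

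The RefSeq promoter entries available here, on GRCm38.p6, covered 6 of the 10 genes, and 3 upstream stretches are shown. They belong to Nid1 and to the beta chain genes Lamb1 and Lamb2. Nid1 had the highest level and the lowest ratio of scaled counts between the pups, and the beta chain genes had similar levels. Each line gives the 250 bases before the RefSeq start, 5′ to 3′ on the gene's strand, which is the plus strand for all 3. Each stretch ends inside the gene span given below, which starts before the RefSeq start. Capitals mark the GC box GGGCGG and the TATA motif TATAA on either strand, so that a GC box on the other strand reads CCGCCC.
Nid1 (chr13:13437352-13437601): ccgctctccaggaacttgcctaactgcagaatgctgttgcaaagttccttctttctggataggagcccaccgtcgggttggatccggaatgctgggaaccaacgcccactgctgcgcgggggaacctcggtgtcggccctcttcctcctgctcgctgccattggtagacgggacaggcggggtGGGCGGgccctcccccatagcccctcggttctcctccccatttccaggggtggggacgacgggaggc
Lamb1 (chr12:31265043-31265292): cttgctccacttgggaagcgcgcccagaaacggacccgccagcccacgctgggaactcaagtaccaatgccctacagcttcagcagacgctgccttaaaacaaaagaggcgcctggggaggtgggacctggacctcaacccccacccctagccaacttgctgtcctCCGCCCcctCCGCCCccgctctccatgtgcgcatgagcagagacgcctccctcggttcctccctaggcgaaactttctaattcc
Lamb2 (chr9:108479612-108479861): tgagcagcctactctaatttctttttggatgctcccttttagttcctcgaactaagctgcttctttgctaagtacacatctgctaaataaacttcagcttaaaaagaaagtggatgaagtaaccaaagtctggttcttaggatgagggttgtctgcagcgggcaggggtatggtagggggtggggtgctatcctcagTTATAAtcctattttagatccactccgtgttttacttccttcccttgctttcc

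The beta chain genes differ in the composition of these stretches. The Lamb1 stretch is 62% G and C, with 14 CpG pairs, 2 GC boxes and no TATA motif. The Lamb2 stretch is 43.6% G and C, with 3 CpG pairs, no GC box and 1 place where the TATA motif lies on both strands, the copies overlapping. The Nid1 stretch is 64.4% G and C, with 16 CpG pairs and 1 GC box. Of the other genes with an entry, Hspg2 has 5 GC boxes and 20 CpG pairs, Lama5 has 4 and 19, and Lama2 has none of either and 1 TATA motif. Over all 32851 stretches of the same length, 32.74% hold a GC box and 22.78% a TATA motif. At least 2 GC boxes are in 16.21%, at least 4 in 3.342% and at least 5 in 1.428%. The medians are 52.4% G and C and 6 CpG pairs. A match of letters is a description of the sequence, and does not show a binding site.

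All 10 genes were expressed in both pups, 10 of 10 at a TPM of at least 1, against 63.8% of protein-coding genes. Their gene TPM spanned from the alpha chain gene Lama5 at 1.73 in pup 2 and 1.93 in pup 1 to Nid1 at 31.53 in pup 2 and 41.24 in pup 1. By mean TPM the order was Nid1, Lamc1, Nid2, Lama4, Lamb1, Lamb2, Hspg2, Lama2, Lama1 and Lama5. Neighbours in this order had separate point values in the pups, except that Lamb1 and Lamb2 overlapped and so did Hspg2 and Lama2. The deposited intervals of some other neighbours overlap, so their order is uncertain. In pup 2 they are 15.99 to 17.4 TPM for Nid2 and 14.84 to 18.35 for Lama4. For Lama1 they are 2.04 to 2.41 TPM in pup 2, against 1.17 to 2.79 for Lama5.

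**Figure D1:**
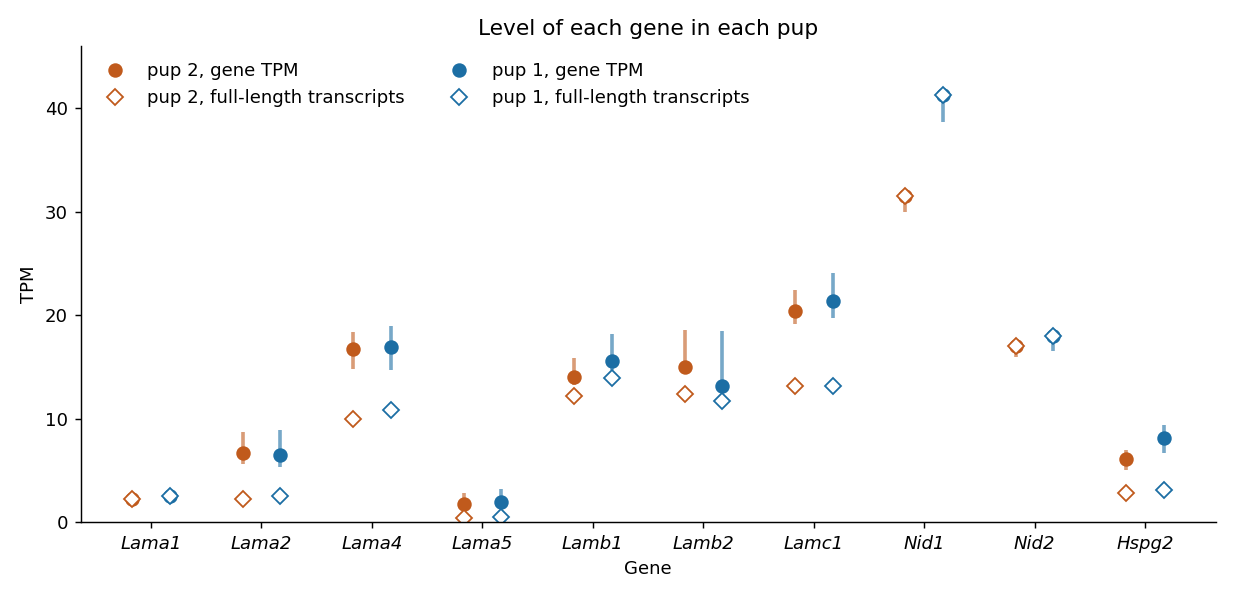
Gene TPM of each gene in pup 2 (orange) and pup 1 (blue), with the deposited interval as a bar, and the TPM of full-length transcripts only as open diamonds. Nid1 stands highest, at 31.53 TPM in pup 2 and 41.24 in pup 1. The diamonds lie on the gene values for Lama1, Nid1 and Nid2, which have 1 transcript each. In TPM they lie furthest below them for Lamc1 and Lama4. As a share of the gene value they are lowest for Lama5, Lama2 and Hspg2.

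The alpha chain decides which receptors a laminin binds, and Lama4, known as the alpha chain of blood vessel endothelium, was the highest alpha chain gene. Lama4 (ENSMUSG00000019846.7, chromosome 10, 38965515 to 39110188, plus strand; coordinates are on mm10) had 16.72 TPM in pup 2 and 16.9 in pup 1, a mean of 16.8 ± 0.127 (SD, n = 2). Its value was nearly the same in both pups. Lama2, whose chain is known from the basement membranes of muscle and Schwann cells and of brain capillaries, had 6.64 TPM in pup 2 and 6.5 in pup 1, or 6.57 ± 0.099 (ENSMUSG00000019899.11, chromosome 10, 26980036 to 27619758, minus strand). Lama1, the alpha chain of the early embryo and of the pial surface, had 2.27 TPM in pup 2 and 2.57 in pup 1, or 2.42 ± 0.212 (ENSMUSG00000032796.7, chromosome 17, 67697259 to 67822647, plus strand). Lama5, an alpha chain of many epithelia and of mature vessels, was lowest at 1.83 ± 0.141 TPM (ENSMUSG00000015647.9, chromosome 2, 180176373 to 180225859, minus strand), from 151 counts in pup 2 and 121 in pup 1.

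Lama4 therefore made up most of the alpha chain transcripts in each pup. It held 61.1% of the summed alpha chain TPM in pup 2 and 60.6% in pup 1. Lama2 held 24.3% in pup 2 and 23.3% in pup 1, and Lama1 held 8.30% in pup 2 and 9.21% in pup 1. Lama5 held the least, 6.32% in pup 2 and 6.92% in pup 1. Lama4 exceeded Lama5 9.66 times in pup 2 and 8.76 times in pup 1.

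The beta chain genes were close to each other. Lamb1, the more widely expressed beta chain in the embryo, had 14.05 TPM in pup 2 and 15.55 in pup 1, or 14.8 ± 1.06 (ENSMUSG00000002900.11, chromosome 12, 31265234 to 31329644, plus strand). Lamb2, the beta chain of the neuromuscular synapse and of mature vessel and kidney basement membranes, had 15.02 TPM in pup 2 and 13.19 in pup 1, or 14.1 ± 1.29 (ENSMUSG00000052911.5, chromosome 9, 108479736 to 108490530, plus strand). Which of them was higher differed between the pups, and their ratio, Lamb1 over Lamb2, was 0.935 in pup 2 and 1.18 in pup 1. The pup 1 value of Lamb2 lies just under its own deposited interval, 13.23 to 18.45 TPM, so the order of the beta chains is uncertain.

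Lamc1, the gamma chain of nearly all laminins outside the epidermis, was the highest laminin chain gene. It had 20.37 TPM in pup 2 and 21.33 in pup 1, or 20.85 ± 0.679 (ENSMUSG00000026478.10, chromosome 1, 153218922 to 153332786, minus strand). Summed by class, alpha chains reached 27.36 TPM in pup 2 and 27.9 in pup 1, and beta chains 29.07 in pup 2 and 28.74 in pup 1. The alpha sum was 1.34 times the Lamc1 level in pup 2 and 1.31 times in pup 1, and the beta sum 1.43 times in pup 2 and 1.35 times in pup 1. In gene TPM no class therefore differed from another by more than 1.5 times, a comparison that changes when short transcripts are left out, as given further on.

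Further chain genes were low for their class. Lama3, an alpha chain of epithelia, had 0.38 TPM in pup 2 and 0.45 in pup 1, and Lamb3, an epithelial beta chain, had 0.18 TPM in pup 2 and 0.24 in pup 1. The gamma chain gene Lamc3 had 1.66 TPM in pup 2 and 2.04 in pup 1. Each was lower in both pups than every gene of its class among the 10. Lamc3 was nonetheless close to the alpha chain gene Lama5, which had 1.73 TPM in pup 2 and 1.93 in pup 1.

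**Figure D2:**
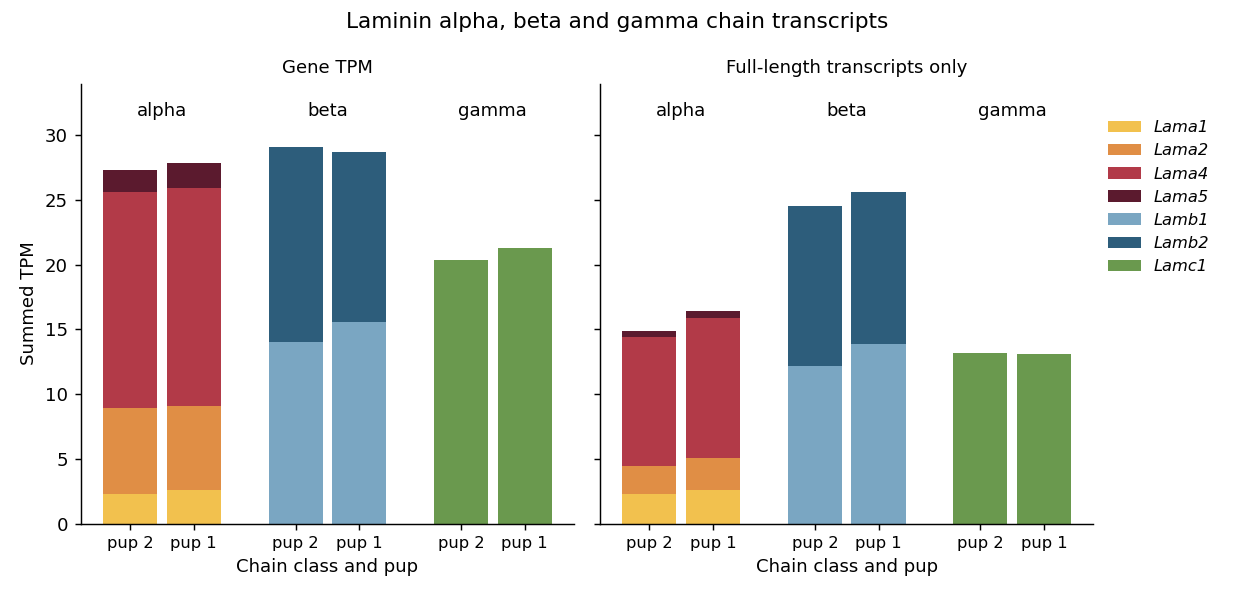
Summed TPM of alpha, beta and gamma chain genes in pup 2 and pup 1, stacked by gene, from gene TPM (left) and from full-length transcripts only (right). Lama4 fills most of the alpha bars in both panels. The alpha bars reach 27.36 TPM in pup 2 and 27.9 in pup 1 on the left, and 14.87 TPM in pup 2 and 16.43 in pup 1 on the right.

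The nidogens were higher than any laminin chain gene when summed. Nid1, entactin, had 31.53 TPM in pup 2 with a deposited interval of 30.01 to 31.72, and 41.24 TPM in pup 1 with an interval of 38.7 to 41.11, whose upper end is just under the value itself (ENSMUSG00000005397.7, chromosome 13, 13437551 to 13512269, plus strand). Nid1 had the widest gap between the pups in absolute TPM, lower in pup 2, with a mean of 36.4 ± 6.87. Nid2, its paralog, had 17.06 TPM in pup 2 and 17.95 in pup 1, or 17.5 ± 0.629 (ENSMUSG00000021806.3, chromosome 14, 19751265 to 19811787, plus strand). Nid1 took 64.9% of nidogen TPM in pup 2 and 69.7% in pup 1. The nidogen sum was 2.39 times the Lamc1 level in pup 2 and 2.77 times in pup 1. Nid2 overlaps the gene Rtraf on the other strand by 437 bases, and the strand setting of the counting is not given, so reads there cannot be assigned. The same holds for Nid1 and antisense Gm48682, for Lama2 and antisense genes such as Gm48084, and for Lamc1 and the opposite-strand pseudogene Gm8818. Lamc1 and Lama2 also each share a strand with a short unverified gene that held at most 31 counts in a pup.

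Perlecan was lower than the nidogens and than either beta chain. Hspg2 had 6.1 TPM in pup 2 and 8.17 in pup 1, or 7.135 ± 1.46 (ENSMUSG00000028763.13, chromosome 4, 137468769 to 137570630, plus strand). In expected counts it had 1119 in pup 2 and 822 in pup 1. On the log2 scale the difference was -0.42 in TPM and -0.11 in scaled counts. The deposited gene length, an average over its transcripts by which TPM is scaled, was 7005 bases in pup 2 and 5934 in pup 1.

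The gene TPM of several of these long genes includes short annotated transcripts. A full-length transcript here means a protein-coding one at least 50% as long as the longest protein-coding one of its gene, a limit chosen after seeing the data. Of 44 transcripts 12 are full-length, and Lama1, Nid1 and Nid2 have 1 transcript each. In the 7 genes with several, full-length transcripts held from 80.9% to 98.9% of the counts but from 26.0% to 89.4% of the TPM.

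The gap was widest for Lama5, Lama2 and Hspg2. Full-length transcripts of Lama5 held 26.0% of its TPM in pup 2 and 28.6% in pup 1, against 89.6% of its counts in pup 2 and 88.8% in pup 1. For Lama2 they held 33.2% of TPM and 80.9% of counts in pup 2, and 38.6% of TPM and 83.2% of counts in pup 1. For Hspg2 they held 46.2% of TPM and 94.4% of counts in pup 2, and 38.2% of TPM and 92.4% of counts in pup 1. A short transcript needs few reads for a high TPM: Hspg2-202, a non-coding transcript of 820 bases, had 62.76 counts and 3.28 TPM in pup 2, and 62.7 counts and 5.04 TPM in pup 1. Lama2-206, a retained intron of 643 bases at the 5′ end, had 2.72 TPM in pup 2 and 2.52 in pup 1. The full-length Lama2-201 was below it, at 2.2 TPM in pup 2 and 2.51 in pup 1.

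Short transcripts at the 3′ end recurred among these genes. Of 8 transcripts that are not full-length, reached a TPM of 1 in a pup and could be placed in the annotation, 5 end within 1000 bases of the 3′ end of their gene. The others, Lama2-204, Lama2-206 and Lamb2-207, lie nearer the 5′ end. The same share over all genes is not given here. Lama4-207, a retained intron of 511 bases, held 5.13 TPM in pup 2 and 5.05 in pup 1. Lamc1-204, protein-coding and 1447 bases long, held 6.73 TPM in pup 2 and 7.72 in pup 1. Coverage along the transcripts was not analysed here, so whether such reads come from the short transcript or from the 3′ end of the full-length one was not tested.

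**Figure D3:**
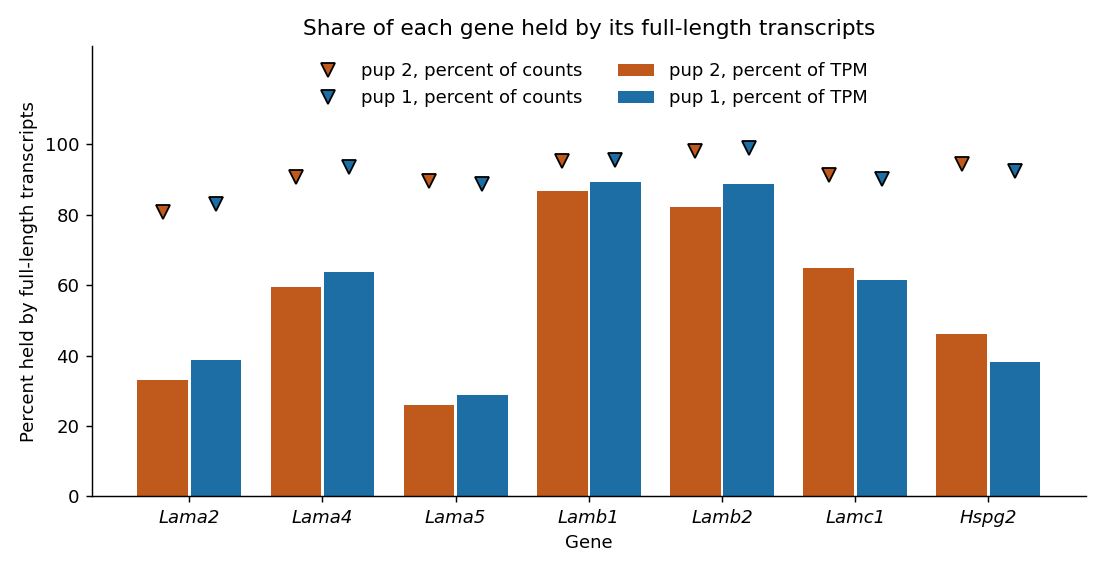
Percent of each gene's TPM (bars) and of its expected counts (triangles) held by full-length transcripts, in pup 2 (orange) and pup 1 (blue), for the 7 genes with several transcripts. Triangles lie between 80.9% and 98.9%. The Lama5 bars are lowest, at 26.0% in pup 2 and 28.6% in pup 1.

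With full-length transcripts only, the laminin chains stood in another proportion. Alpha chains summed to 14.87 TPM in pup 2 and 16.43 in pup 1, beta chains to 24.53 in pup 2 and 25.59 in pup 1, and Lamc1 to 13.2 in pup 2 and 13.12 in pup 1. The alpha sum was then 0.606 of the beta sum in pup 2 and 0.642 in pup 1, against 0.941 in pup 2 and 0.971 in pup 1 by gene TPM. Lama4 still led the alpha chains with 66.9% in pup 2 and 65.7% in pup 1, while Lama1, at 15.3% in pup 2 and 15.6% in pup 1, was level with Lama2, at 14.8% in pup 2 and 15.3% in pup 1. Lama5 was under a TPM of 1, at 0.45 in pup 2 and 0.55 in pup 1, so that 9 of 10 genes stayed above it. By the same measure Lamc3, not among the 10, had 1.66 TPM in pup 2 and 2.04 in pup 1. The order became Nid1, Nid2, Lamc1, Lamb1, Lamb2, Lama4, Hspg2, Lama1, Lama2 and Lama5. By point values Lamc1 overlapped with Lamb1 over the pups, Lamb1 with Lamb2, and Lama1 with Lama2.

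The leading transcript was the same in both pups for 6 of the 7 genes, against 90.1% of all genes with several transcripts and a TPM of at least 1 in both pups. Lama4, Lamb1, Lamb2 and Lamc1 were led by a full-length transcript in both. Lama2 was led by the retained intron Lama2-206, and Hspg2 by the non-coding Hspg2-202. The Lama2 lead is uncertain, since Lama2-206 rests on 39.37 counts in pup 2 and 23.62 in pup 1. In pup 1 it held 38.71% of the gene's TPM, against 38.66% for the full-length Lama2-201. Lama5 was the exception, led by Lama5-202 in pup 2, with 0.57 TPM from 5.33 counts, and by Lama5-203 in pup 1, with 1.03 TPM from 11.32 counts. Both are non-coding transcripts at the 3′ end, and the counts behind them are few.

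The 10 genes differed little between the pups, in size about as much as all genes that reached a mean count of 100. Differences are log2 ratios of expected counts, pup 2 over pup 1, after TMM scaling, which sets the bulk of genes to no change. None of the 10 differed at least 2-fold, against 0.473% of the 13544 genes whose mean count reached 100. The ratios of scaled counts ran from -0.32 for Nid1 to 0.16 for Lamb2, 8 below 0 and 2 above. Their median was -0.10, against 0.00 over all 13544 genes, and the median size of the ratio without its sign was 0.112, against 0.111.

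Nid1 stood apart within the group. Its log2 ratio was -0.32, with a 95% counting interval of -0.38 to -0.26, which is 0.802-fold, from 4982.5 counts in pup 2 and 4230.44 in pup 1. It was the 1 gene of 10 whose deposited TPM intervals did not overlap between the pups, against 23.6% of all 13544 genes in either direction and 15.9% with pup 2 lower. A share of 1 in 10 is not above that background. The counting intervals of Lamb1, -0.22 to -0.02, and Lamb2, 0.05 to 0.27, also left out 0, on opposite sides. With Nid1 that makes 3 of 10 genes, against 43.7% of all 13544 genes. For the other 7 genes they included 0, and Lama4 and Nid2 had ratios of -0.01 each. These intervals cover counting error only, not the spread between animals.

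**Figure D4:**
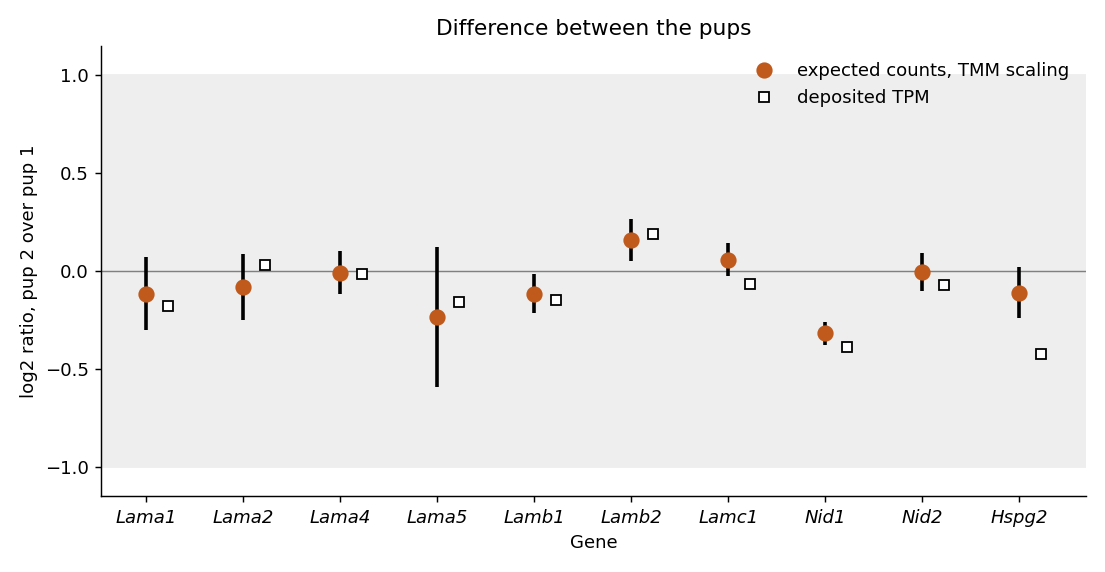
Log2 ratio of pup 2 over pup 1 for each gene, from TMM-scaled expected counts (circles with the 95% counting interval) and from deposited TPM (open squares); the grey band marks less than a 2-fold difference. All points lie in the band. Nid1 is lowest in scaled counts, at -0.32, and Hspg2 is lowest in TPM, at -0.42, with -0.11 in scaled counts.

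The direction of small ratios depends on the scale. With spike-in totals as the scale, every log2 ratio shifts by -0.29, all 10 genes lie below 0 and the median of all genes is -0.29. The spike-in totals are small, 603 counts in pup 2 and 335 in pup 1. With TMM factors computed over all gene rows, 4 genes lie above 0 and 6 below.

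Other basement membrane genes surrounded this group in level. Of 20 further components 14 reached a TPM of 1 in both pups, near the share of 63.8% among protein-coding genes. None of the 17 components that reached a mean count of 100 differed 2-fold. Sparc, a collagen-binding glycoprotein, was highest at 1140.77 TPM in pup 2 and 1020.11 in pup 1. Agrn, agrin, a heparan sulfate proteoglycan that clusters acetylcholine receptors, had 48.6 TPM in pup 2 and 67.77 in pup 1. Col4a1, a chain of type IV collagen, had 30.45 TPM in pup 2 and 31.98 in pup 1. Col4a4, a collagen chain of kidney and lung basement membranes, was lowest at 0.21 TPM in pup 2 and 0.26 in pup 1.

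Receptor genes were mostly detected, and so were all listed genes for the sugar chain of dystroglycan, 1 of these receptors. Of 10 laminin receptor genes 9 reached a TPM of 1 in both pups, against 63.8% of protein-coding genes. The integrin beta1 gene Itgb1 led with 67.53 TPM in pup 2 and 63.09 in pup 1, followed by Dag1, dystroglycan, with 60.03 in pup 2 and 62.16 in pup 1. Bcam, a laminin alpha5 receptor, had 36.19 TPM in pup 2 and 31.93 in pup 1. The collagen-binding integrin gene Itga2 was lowest at 0.67 TPM in pup 2 and 0.66 in pup 1. All 12 of 12 genes for the sugar chain through which dystroglycan binds laminin were detected, from B4gat1 at 142.29 TPM in pup 2 and 137.86 in pup 1 to B3galnt2 at 4.45 in pup 2 and 4.78 in pup 1. Pomgnt1, at 51.47 TPM in pup 2 and 58.99 in pup 1, and Rxylt1, at 45.86 in pup 2 and 45.88 in pup 1, were next below B4gat1.

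All 12 of 12 genes of heparan sulfate synthesis, which builds the side chains of perlecan, were detected as well, against 63.8% of protein-coding genes. B3gat3, which completes the linker to the core protein, had 65.42 TPM in pup 2 and 69.39 in pup 1. Ext2, a subunit of the chain polymerase, had 51.22 TPM in pup 2 and 58.01 in pup 1, and B4galt7, another linker enzyme, 36.12 in pup 2 and 37.57 in pup 1. Xylt1, which starts the linker, was lowest at 1.98 TPM in pup 2 and 2.01 in pup 1. None of these lists held a gene with a 2-fold difference, and their median log2 ratios lay between -0.05 and 0.01.

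Markers of the cells that lie against basement membranes were measured beside them. Detected means a TPM of at least 1 in both pups, which 63.8% of protein-coding genes reached. Endothelial markers were detected for 8 of 8, with a summed level of 184.25 TPM in pup 2 and 219.25 in pup 1, and Cldn5, a tight junction protein, highest at 103.23 in pup 2 and 129.96 in pup 1. The endothelial median log2 ratio was -0.10, with 3 of the 8 genes above 0 and 5 below. Mural cell markers were detected for 7 of 8, with sums of 41.13 TPM in pup 2 and 51.99 in pup 1 and a median log2 ratio of -0.31. Meningeal fibroblast markers were detected for 8 of 8, with sums of 788.86 TPM in pup 2 and 666.39 in pup 1 and a median log2 ratio of 0.40, led by Col1a1 at 232.85 in pup 2 and 185.55 in pup 1. Of the mural markers that reached a mean count of 100, 6 of 7 had a log2 ratio below 0. The median over all 13544 genes with that count was 0.00. Anpep, named after its value was seen, was above 0 at 0.29. All 7 of 7 such meningeal markers were above 0, and no marker of either list differed 2-fold. Their part in the Nid1 difference was not tested.

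Markers of neighbouring peripheral tissue were measured as well, again beside a detected share of 63.8% among protein-coding genes. Schwann cell markers were detected for 5 of 6, with sums of 201.07 TPM in pup 2 and 202.41 in pup 1, and skeletal muscle markers for 5 of 7, with sums of 59.45 in pup 2 and 59.64 in pup 1. Sensory ganglion markers were detected for 3 of 8, with sums of 247.27 TPM in pup 2 and 161.72 in pup 1. Most of both sums came from Prph and Calca. Prph, the highest, had 126.37 TPM in pup 2 and 94.76 in pup 1. Calca had 92.53 TPM in pup 2 and 63.51 in pup 1. Avil, P2rx3 and Scn10a, which reached a mean count of 100, were at least 2-fold higher in pup 2. None of the 10 basement membrane genes shared a difference of that size, and the part of ganglion tissue in their values was not tested.

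**Figure D5:**
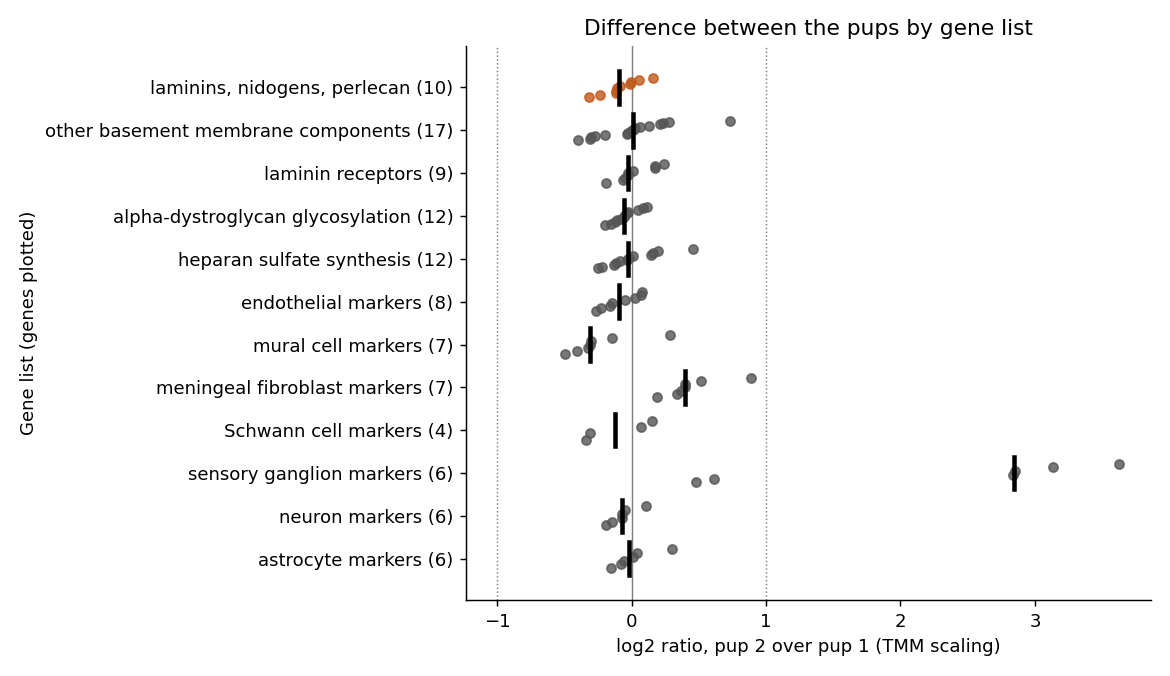
Log2 ratio of pup 2 over pup 1 for the genes of each list shown that reached a mean count of 100, with the list median as a black bar; dotted lines mark a 2-fold difference. The laminins, nidogens and perlecan (top) lie between -0.32 and 0.16, mural markers have a median of -0.31, meningeal markers 0.40, and the sensory ganglion markers Avil, P2rx3 and Scn10a lie beyond the right dotted line while Prph lies inside it.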

How the data were processed

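Each pup gave a gene table and a transcript table. Per the file headers, the deposited tables hold expected counts (estimated read counts that need not be whole), TPM, posterior means of both, and interval bounds of TPM, under column names as RSEM writes them. The bounds are a signal on the TPM scale and the SD of each posterior count is a score, both computed by the authors before deposit. The percent of its gene's TPM that each transcript holds is also deposited. The deposited notes name mm10 and GENCODE M4; the sources used here do not give the aligner, the version of RSEM or the strandedness of counting.

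Annotation was from GENCODE M21 (GRCm38, identical to mm10), joined on unversioned gene IDs, and 42462 of 43346 rows received a symbol. One Lamb1 transcript had no match and entered only the gene totals. Upstream sequences came from RefSeq on GRCm38.p6. Rounded expected counts were scaled by TMM in edgeR 4.0.16 (R 4.3.3) on genes averaging at least 10 counts; size factors from DESeq2 1.42.0 were an alternative. Log2 ratios of counts added 0.5 counts, those of TPM in the alternative a pseudocount of 1, and those of TPM in the text none. Counting intervals are exact binomial at 95%. Tables and plots were made in Python 3.11.15 with pandas 2.3.3, numpy 2.4.6, matplotlib 3.10.9 and scipy 1.17.1. Scaling was checked on simulated data.

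The 10 genes and the other lists were chosen with earlier results of these data known. The rule for names took all 10 genes and, of each other list, the 3 highest by mean TPM, the lowest, and any past 2-fold with an average of at least 100 counts; marker lists are given in shorter form. Some genes under this rule are not reported here.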

Additional observations from a re-analysis of the deposited data

How the results depend on the processing

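No gene of the 10 differed 2-fold under any scaling tried, or 1.5-fold with TMM, 10 of 10 stayed at a TPM of at least 1 with the posterior mean, and 8 of 10 did at a limit of 5. No paired analysis was possible because the series holds a single group. The levels of the chains depended on the measure (means over the pups). The alpha sum was 28.25 TPM with the posterior mean, 15.68 with protein-coding transcripts only and 15.65 with full-length transcripts only, against 27.6 in gene TPM, and the beta sum 31.47, 25.74 and 25.06, against 28.9. With these 3 measures the Lama4 share of alpha chains was 59.1%, 66.2% and 66.3%, the Lama5 share 7.48%, 3.18% and 3.19%, and the Lama2 share 25.1%, 15.2% and 15.0%. The Lama1 share was 15.4% and 15.5% with the protein-coding and the full-length measure. In expected counts, which are not divided by length, the shares were 54.3% for Lama4, 5.13% for Lama5, 22.1% for Lama2 and 18.5% for Lama1, and Nid1 held 71.9% of the nidogens. With Lama3 included, Lama4 held 59.9%. The median log2 ratio was -0.39 with spike-in totals. The full-length limit was chosen after seeing the data. With 2 pups, leaving out either one only gives the value of the other, so it is no test of stability. With 2 pups of 1 litter, the SD is a rough estimate. Depth limits Lama5 most, with 121 counts in pup 1.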
